A study of Homo sapiens with 6 samples.

Results

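UGCG, ST3GAL5, ST8SIA1 and B4GALNT1, enzymes on the route to the glycolipid GD2, and CD276, NCAM1, L1CAM, GPC2, CD24 and CD47, surface proteins pursued as immunotherapy targets, were followed in neuroblastoma cells under 2 compounds. The 10 genes were chosen by name, with earlier results of these data known, and all 10 were found among the 36601 genes of the count matrices. SK-N-BE(2)-C, a long-established line of human neuroblastoma, was profiled by Seq-Well S3, which captures single cells with barcoded beads in microwells. Control cells received DMSO, the usual solvent. Treated cells received TSA, the usual abbreviation of trichostatin A, which blocks the enzymatic activity of histone deacetylases (HDACs), or E6R. By its title the series concerns a compound that inhibits the HDAC complex without acting on its enzymatic activity. What E6R is chemically is not stated in the labels, nor are dose or time. Each treatment had 2 libraries, all of the same line, harvested in the same way, and the labels do not say whether the 2 came from separate cultures, so the p-values measure only the spread between these libraries, which may be technical.

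GD2 is a ganglioside, a sialic acid-bearing glycolipid that neuroblastoma cells carry in abundance, and antibodies against it are used in treatment. UGCG places glucose on ceramide. The lactosylceramide synthases B4GALT5 and B4GALT6 add galactose, ST3GAL5 adds the first sialic acid to make GM3, ST8SIA1 adds the next to make GD3, and B4GALNT1 adds N-acetylgalactosamine to make GD2. CD276 is an immune checkpoint protein of the B7 family. NCAM1 and L1CAM are neural cell adhesion molecules, and GPC2 is a heparan sulfate proteoglycan of developing neurons. CD24 and CD47 are surface proteins that restrain phagocytosis by macrophages. RNA levels of the enzymes are not levels of GD2, which was not measured in these files.

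Barcodes with at least 500 genes and at most 20% of unique molecular identifiers (UMIs) from mitochondrial genes were kept as cells, 17589 in all and 1861 to 3946 per library. UMIs in cells came to 4206366 and 4793493 under DMSO, 14282282 and 13318200 under TSA, and 15781024 and 26180262 under E6R, with median UMIs per cell of 1054 to 1880. The 1% of cells with most UMIs held 22.5% of the UMIs of E6R replicate 2, against 8.77% to 15.6% in the other libraries. Mitochondrial genes took 5.83% to 9.71% of the UMIs of DMSO and TSA cells and 1.55% and 1.51% of those of E6R cells, and the part of this or of depth in the results was not tested. Pairs of libraries shared 11 to 58 cell barcodes. Chance matches would give under 1 for each pair if all barcodes were equally likely, which was not tested. Between 17 and 100 cells of a library had a barcode that was also a cell in another library. Without those cells the same 4 genes were called in TSA against DMSO, and in E6R against TSA the call of CD47 was lost and ST3GAL5 was called. All 8 adrenergic neuroblastoma markers had UMIs in every library, with a summed level of 599 to 2061 counts-per-million of UMIs in cells (CPM). Summed levels were 7.86 to 11.9 for the 4 immune markers, 4.51 to 16.5 for the 4 Schwann markers, 0 to 2.78 for the 3 erythroid markers and 8.71 to 96.0 for the 3 epithelial markers.

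Levels below are UMIs summed over the cells of a library, in CPM, with the library size scaled by TMM, a method that centres fold changes on the bulk of genes. Fold changes, given on the log2 scale, and p-values adjusted for all genes by the Benjamini-Hochberg method come from edgeR's quasi-likelihood test across all 6 libraries, and a gene was called at an adjusted p under 0.05. The method reads the 3' ends of transcripts, so levels are compared between libraries for 1 gene and not between genes. All 10 genes passed the low-count filter, as did 16763 genes in all.

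Under TSA, B4GALNT1 and CD276 fell and NCAM1 and GPC2 rose, while the other 6 genes were not called. These were 4 of 10, where 29.7% of all tested genes were called: 16.2% higher and 13.5% lower. With library totals alone as the scale, the split over all genes moved from 2720 higher and 2255 lower to 1717 higher and 3361 lower, and the median fold change of all genes moved from -0.01 to -0.32, while the same 4 members were called in the same directions. Under E6R against DMSO edgeR called no member and 0% of all tested genes. Before adjustment 2 of the 10 members, UGCG and CD47, had an unadjusted p under 0.05, where 2913 tested genes (17.4%) did. DESeq2 called 415 genes and no member in that comparison. Between E6R and TSA, 5 of 10 were called, where 38.2% of tested genes were: B4GALNT1, CD276 and CD47 were higher under E6R, and NCAM1 and GPC2 lower. That comparison and TSA against DMSO share the TSA libraries, so the calls of B4GALNT1, CD276, NCAM1 and GPC2 in it are not separate evidence. Leaving out DMSO replicate 2, TSA replicate 1 or TSA replicate 2 left CD276 as the only member called in TSA against DMSO; B4GALNT1, NCAM1 and GPC2 kept their direction, with edgeR adjusted p of 0.0535 to 0.115. Over all genes those fits called 2696, 1769 and 1416, against 4975 with all libraries. In E6R against TSA, 3 members were called without TSA replicate 1, 1 without TSA replicate 2 and 7 without E6R replicate 2, where 3175, 2628 and 6324 of all genes were called, against 6408 with all libraries. By CPM alone, the groups did not overlap for 5 of 10 members in TSA against DMSO (71.3% of tested genes), for 4 in E6R against DMSO (47.3%) and for 8 in E6R against TSA (72.6%).

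**Figure D1:**
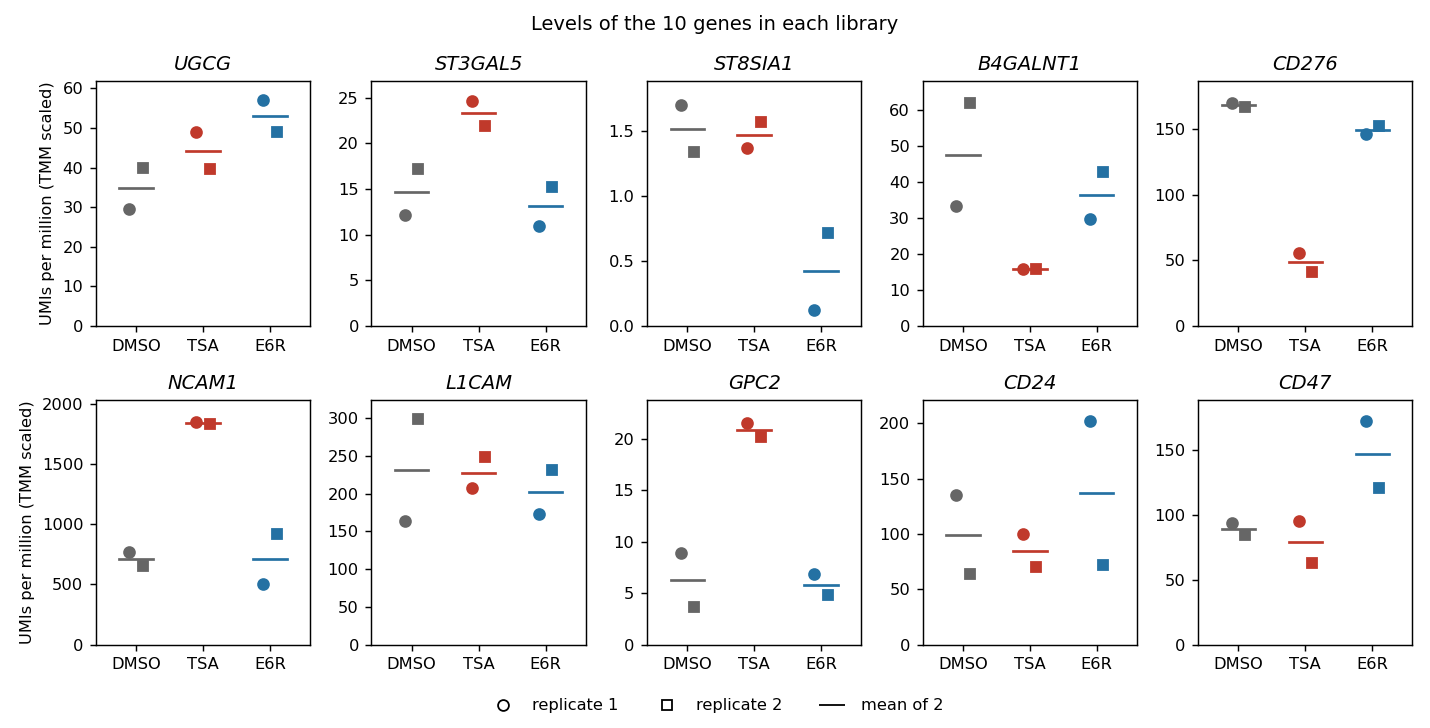
Levels of the 10 genes in each library, in CPM with TMM scaling on a linear axis from 0; circles are replicate 1, squares replicate 2 and bars the mean of 2. The TSA libraries sit at 15.8 and 15.7 for B4GALNT1 and at 55.8 and 41.0 for CD276, below the other 4 libraries in each panel, and at 1854 and 1829 for NCAM1, above them.

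**Figure D2:**
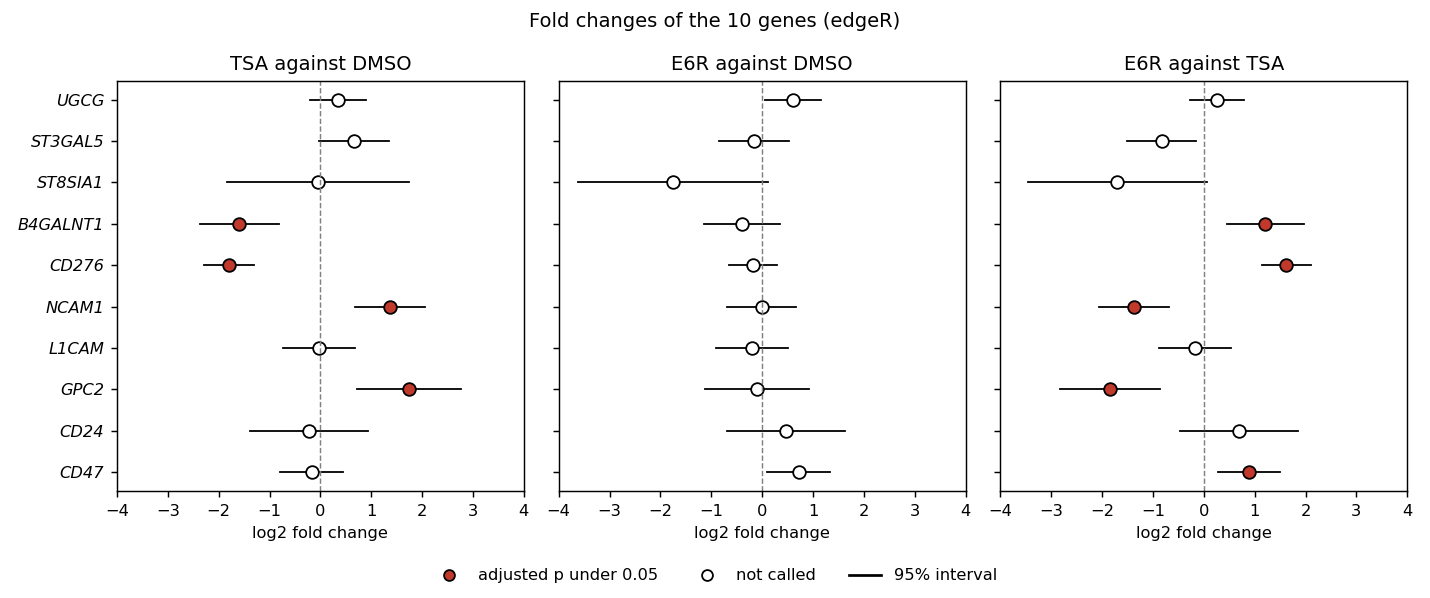
Log2 fold change of each gene in the 3 comparisons, with its 95% interval as a line; filled points passed an edgeR adjusted p of 0.05. Filled points number 4 in TSA against DMSO, 0 in E6R against DMSO and 5 in E6R against TSA.

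B4GALNT1 (ENSG00000135454, chr12:57623410-57633355, minus strand, GRCh38 with GENCODE 29) makes the last step to GD2. Its level was 33.1 and 61.8 CPM under DMSO, 15.8 and 15.7 under TSA, and 29.8 and 42.8 under E6R. The TSA libraries lay below all others, and the DMSO and E6R libraries overlapped. It fell under TSA by 1.59 on the log2 scale (SE 0.34, edgeR adjusted p = 0.0112), which is 3.02-fold. E6R against DMSO gave -0.39 (95% interval -1.14 to 0.36, edgeR adjusted p = 0.566), and E6R was 1.21 above TSA (SE 0.33, edgeR adjusted p = 0.0224). Between the DMSO libraries the level differed more than between the group means of DMSO and E6R, 47.5 ± 20.2 and 36.3 ± 9.23 CPM (SD, n = 2). Without DMSO replicate 2 the difference for TSA was -1.15 and not called (edgeR adjusted p = 0.0535), and E6R against TSA was not called without E6R replicate 2 (0.94, edgeR adjusted p = 0.0576). Exons of SLC26A10 overlap it on the opposite strand, and whether counting used strand is not stated in the labels.

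ST8SIA1 (ENSG00000111728, chr12:22063773-22437041, minus strand), which makes GD3 and so opens the b-series that holds GD2, was near the limit of detection. Its UMIs numbered 8 and 7 under DMSO, 18 and 18 under TSA, and 2 and 19 under E6R. In CPM these were 1.70 and 1.34, 1.37 and 1.57, and 0.126 and 0.715. The E6R libraries were the lowest, yet E6R replicate 2 held more UMIs of the gene than any other library. The test gave -0.05 for TSA (95% interval -1.84 to 1.75, edgeR adjusted p = 0.971) and -1.74 for E6R (95% interval -3.61 to 0.12, edgeR adjusted p = 0.315), so a difference from DMSO was not detectable at this depth. E6R against TSA gave -1.70 and was not called, though the CPM of the groups did not overlap. Over 17 alternatives that difference ran from -3.39 to -0.95 and was called under 2. Barcodes of under 300 genes may hold free RNA or fragments of cells, and what they hold was not tested. In them the gene was at 1.01 to 6.89 CPM, from 2 to 11 UMIs, and its level in cells was 0.107 to 0.504 of that in 5 of 6 libraries and 1.33 times it in TSA replicate 2. UMIs of ST8SIA1 in cells can therefore not be told apart from the level in such barcodes.

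ST3GAL5 (ENSG00000115525, chr2:85837120-85905199, minus strand), the GM3 synthase, was at 12.1 and 17.2 CPM under DMSO, 24.6 and 21.9 under TSA, and 10.99 and 15.2 under E6R. Both TSA libraries were above the other 4. The difference was 0.66 for TSA against DMSO (SE 0.30, edgeR adjusted p = 0.129) and -0.83 for E6R against TSA (SE 0.29, edgeR adjusted p = 0.0560), and neither was called. With the replicate number as a block the second was called (-0.85, edgeR adjusted p = 0.0281). E6R and DMSO overlapped, with a difference of -0.16 (95% interval -0.85 to 0.53, edgeR adjusted p = 0.812).

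UGCG (ENSG00000148154, chr9:111896766-111935369, plus strand), which commits ceramide to glycolipids, was at 29.5 and 40.0 CPM under DMSO, 48.9 and 39.6 under TSA, and 57.0 and 49.1 under E6R. The group means were ordered DMSO, TSA, E6R, at 34.8 ± 7.38, 44.3 ± 6.58 and 53.0 ± 5.61 (SD, n = 2), with DMSO and TSA overlapping and E6R replicate 2, at 49.1, hardly above TSA replicate 1, at 48.9. E6R against DMSO gave 0.61 (95% interval 0.06 to 1.16, edgeR adjusted p = 0.253). TSA against DMSO gave 0.35 (95% interval -0.20 to 0.90, edgeR adjusted p = 0.298).

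CD276 (ENSG00000103855, chr15:73683966-73714518, plus strand) had the smallest p of the 10 genes in both comparisons with TSA. Its level was 169.5 and 166 CPM under DMSO, 55.8 and 41.0 under TSA, and 146 and 153 under E6R. The 2 libraries were close together under DMSO and under E6R and further apart under TSA, and both TSA libraries lay far below the rest. The gene fell under TSA by 1.79 (SE 0.21, edgeR adjusted p = 0.00159), which is 3.47-fold, and E6R was 1.62 above TSA (SE 0.21, edgeR adjusted p = 0.00124). CD276 was called under all 18 alternatives tried in both comparisons, including each fit without 1 library. Both E6R libraries were below both DMSO libraries, and the difference of -0.17 (95% interval -0.64 to 0.30, edgeR adjusted p = 0.701) was not called.

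NCAM1 (ENSG00000149294, chr11:112961247-113278436, plus strand), the carrier of polysialic acid, was at 771 and 655 CPM under DMSO, 1854 and 1829 under TSA, and 499.7 and 919 under E6R. TSA was above every other library, and the E6R libraries fell on either side of DMSO. It rose under TSA by 1.37 (SE 0.30, edgeR adjusted p = 0.0127), which is 2.58-fold, and E6R against TSA gave -1.38 (SE 0.30, edgeR adjusted p = 0.00905). E6R against DMSO gave -0.01 (95% interval -0.69 to 0.67, edgeR adjusted p = 0.994). The antisense genes AP000802.1 and NCAM1-AS1 overlap its exons.

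The E6R libraries differed in how NCAM1 was spread over cells. With the cells of a library ordered by their UMIs and split into 5 equal groups, NCAM1 in E6R replicate 2 was at 1884, 1771, 1509, 1157 and 843 CPM, from the smallest cells to the largest. In E6R replicate 1 it stayed between 492 and 553, and in the DMSO libraries between 687 and 918. Small barcodes of E6R replicate 2 held NCAM1 at 1633 CPM against 933 in its cells, a ratio of 0.571, and those of the TSA libraries at 1375 and 1586. The ratio was 0.861 to 1.24 in the other 5 libraries. CD276 had no such slope in E6R replicate 2, at 133 to 157 over the 5 groups. Cells of at least 1000 UMIs were also thinned to 1000, which dropped 692 cells of E6R replicate 1 and 1718 of E6R replicate 2. The 2 E6R libraries were then at 501 and 1146 CPM for NCAM1, so the gap between them was wider than in the full sums. The part of free RNA or of shared barcodes in this slope was not tested.

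**Figure D3:**
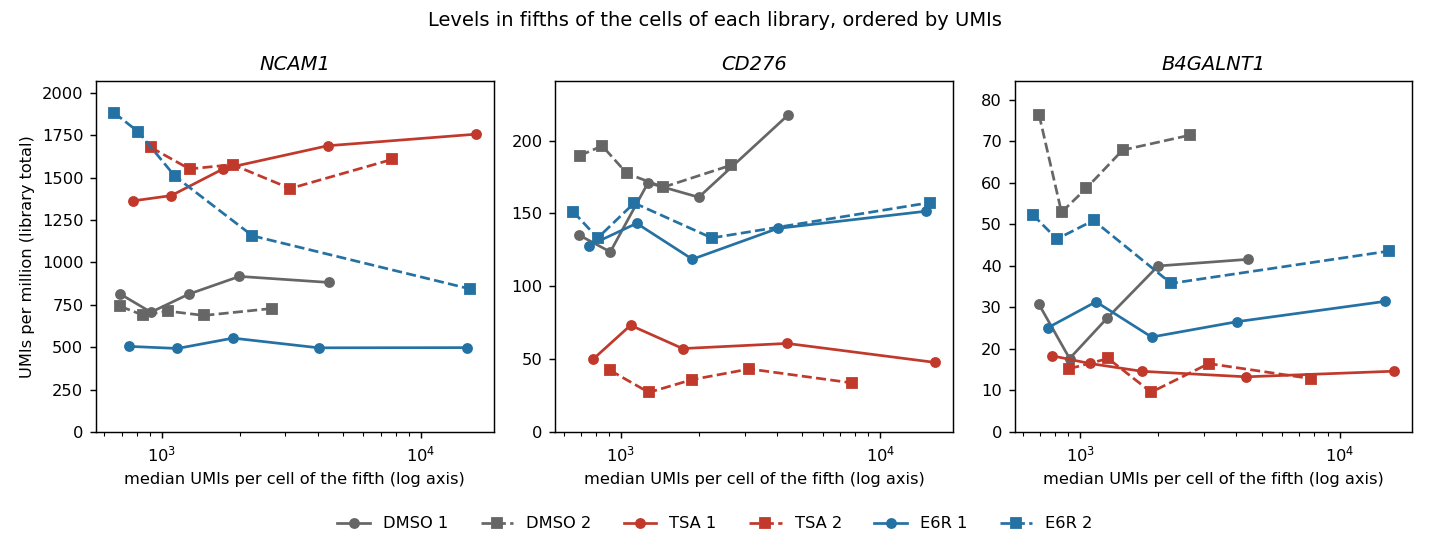
Level of NCAM1, CD276 and B4GALNT1 in 5 equal groups of the cells of each library, in CPM, against the median UMIs per cell on a log axis; each line is a library. NCAM1 in E6R replicate 2 goes from 1884 in the smallest cells to 843 in the largest, while in E6R replicate 1 it stays between 492 and 553.

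L1CAM (ENSG00000198910, chrX:153861514-153886174, minus strand) differed between replicates in every treatment. Its level was 163 and 299.5 CPM under DMSO, 207 and 249 under TSA, and 173 and 232 under E6R. The DMSO libraries enclosed all others, and replicate 2 was above replicate 1 in each treatment. The difference was -0.02 for TSA (95% interval -0.73 to 0.68, edgeR adjusted p = 0.963) and -0.19 for E6R (95% interval -0.90 to 0.51, edgeR adjusted p = 0.776). U52112.1, on the same strand, and LCA10, on the opposite strand, overlap its exons.

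GPC2 (ENSG00000213420, chr7:100169606-100177372, minus strand) was at 8.92 and 3.63 CPM under DMSO, 21.6 and 20.2 under TSA, and 6.82 and 4.82 under E6R, from 42 and 19, 284 and 232, and 108 and 128 UMIs. Both TSA libraries were above the other 4. It rose under TSA by 1.74 (SE 0.44, edgeR adjusted p = 0.0222), which is 3.34-fold, and E6R was below TSA by a log2 difference of -1.85 (SE 0.43, edgeR adjusted p = 0.0116). In DMSO and E6R the level of GPC2 in cells was 0.524 to 0.975 of that in small barcodes, and under TSA it was 1.14 and 1.23 times it. E6R against DMSO gave -0.11 (95% interval -1.13 to 0.91, edgeR adjusted p = 0.921). The call under TSA was lost with cells thinned to 1000 UMIs (1.57, edgeR adjusted p = 0.0868) and without the 5% of cells with most UMIs (1.56, edgeR adjusted p = 0.0538).

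The sequence just upstream of the start is shown for GPC2 and CD47, called members for which stretches of over 150 bases outside GENCODE exons could be read there. The bases are from the RefSeq promoter table (GRCh38.p14), 5' to 3' on the gene's strand, at chr7:100177382-100177562 (minus) and chr3:108091032-108091231 (minus). Capitals mark the GC box GGGCGG on either strand, the letters that SP-family factors are known to bind.
GPC2: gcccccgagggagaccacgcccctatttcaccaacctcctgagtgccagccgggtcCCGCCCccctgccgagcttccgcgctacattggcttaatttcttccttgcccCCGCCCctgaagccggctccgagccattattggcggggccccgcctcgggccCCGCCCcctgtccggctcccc
CD47: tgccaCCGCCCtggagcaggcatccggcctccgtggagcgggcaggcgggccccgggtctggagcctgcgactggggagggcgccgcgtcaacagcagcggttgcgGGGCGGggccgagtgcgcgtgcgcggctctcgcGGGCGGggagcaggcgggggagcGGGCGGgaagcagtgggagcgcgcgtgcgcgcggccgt
The stretch of GPC2 held 3 GC boxes and that of CD47 held 4. In the 250 bases upstream of a start, 13 of the 16 starts of the 8 members matched in the table had at least 1 GC box, against 42.6% of 35116 promoters. Counted by gene, all 8 had one at 1 or more starts, against 46.2% of 27305 genes. None of the 16 starts had the E-box CACGTG (6.345% of promoters) or the letters TATAAA (10.7%) on either strand. CCAAT was present at 8 of the 16 (32.0% of promoters), among starts of ST3GAL5, ST8SIA1, CD276, GPC2 and CD24. Counted by gene, 37% of the 27305 genes had CCAAT at 1 or more starts. Windows of the same gene overlapped in part, those of ST3GAL5 among them, so the 16 starts are not separate. The background shares are of the whole promoter table, not matched for expression, GC content or starts per gene. They therefore do not show whether any of these letters is particular to the members. GPC2, which rose under TSA, and CD276, which fell, both had GC boxes and a CCAAT in this window of a start. B4GALNT1 and NCAM1 were not matched.

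CD24 (ENSG00000272398, chr6:106969831-106975627, minus strand) varied more between replicates than between treatments. Its level was 135 and 63.7 CPM under DMSO, 99.97 and 70.1 under TSA, and 202 and 72.1 under E6R. Replicate 1 was above replicate 2 in each treatment. The difference was -0.22 for TSA (95% interval -1.39 to 0.94, edgeR adjusted p = 0.761) and 0.46 for E6R (95% interval -0.70 to 1.63, edgeR adjusted p = 0.668). Without E6R replicate 1 the difference for E6R turned to -0.36. Of the 6 mesenchymal neuroblastoma or fibroblast markers, FN1, SNAI2 and COL1A1 were also higher in replicate 1 of each treatment and the other 3 were not; the summed level, most of it FN1 in each replicate 1, was 180.4 and 57.4 CPM under DMSO, 408 and 369 under TSA, and 282 and 46.9 under E6R. Their part in this was not tested.

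CD47 (ENSG00000196776, chr3:108043094-108091862, minus strand), the ligand of the macrophage receptor SIRPA, was at 93.7 and 84.9 CPM under DMSO, 95.6 and 62.8 under TSA, and 173 and 121 under E6R. Both E6R libraries were above the other 4. The difference from DMSO was 0.72 (95% interval 0.10 to 1.34, edgeR adjusted p = 0.239), and E6R was 0.89 above TSA (SE 0.27, edgeR adjusted p = 0.0318). The call against TSA was lost under 6 of 18 alternatives. They included fits without TSA replicate 2 (0.62, edgeR adjusted p = 0.223) and without E6R replicate 1 (0.68, edgeR adjusted p = 0.0854). Others were thinning of cells to 1000 UMIs (0.68, edgeR adjusted p = 0.104), removal of the 5% of cells with most UMIs (0.67, edgeR adjusted p = 0.117) and removal of barcodes found in another library (0.79, edgeR adjusted p = 0.0578). After thinning, E6R replicate 2 was at 87.5 CPM, between the DMSO libraries at 87.1 and 95.3. With no low-count filter CD47 was called against DMSO (edgeR adjusted p = 0.0233).

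The share of cells with a UMI of a gene was compared after thinning each cell to 1000 UMIs, since libraries differed in depth. This removed 2124 shallower cells of DMSO, 1118 of TSA and 2410 of E6R. By exact permutation of 2 against 2 libraries, the lowest possible two-sided p is 0.333, so shares are described by whether groups overlapped. They did not overlap for 5 members in TSA against DMSO, where 62.3% of tested genes did not, for 1 in E6R against DMSO (35.7%) and for 6 in E6R against TSA (62.9%). All cells are of 1 line, so no other cell type gave a background share, and the level in small barcodes stands in its place. Over the 6 libraries the level in cells was 0.981 to 1.36 times it for CD276 and 0.892 to 1.57 for B4GALNT1. It was 1.08 to 1.51 for CD47, 1.19 to 1.46 for CD24 and 0.868 to 1.38 for L1CAM. UGCG had 1.05 to 1.44 and ST3GAL5 0.676 to 1.55. The part of RNA from outside cells in the shares was not tested. Intervals cover counting error only.

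NCAM1 was the member seen in most cells. After thinning, 51.2% and 46.6% of DMSO cells, 71.7% and 71.9% of TSA cells, and 36.7% and 63.1% of E6R cells had a UMI, with exact (Clopper-Pearson) 95% intervals no wider than 48.3% to 54.1%, that of DMSO replicate 1. Without thinning the shares were 58.8% and 52.5%, 81.9% and 86.0%, and 58.5% and 78.9%. Cells with at least 2 UMIs of NCAM1 after thinning made up 21.4% and 17.6% of DMSO cells, 43.5% and 41.5% of TSA cells, and 11.8% and 32.3% of E6R cells. In both thinned measures TSA was above all other libraries and the E6R libraries enclosed DMSO.

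CD276 had a UMI in 14.6% and 14.7% of thinned DMSO cells, 5.08% and 3.01% of TSA cells, and 12.6% and 12.8% of E6R cells. The intervals were 12.6% to 16.7% and 13.1% to 16.5% for DMSO, 4.12% to 6.18% and 2.41% to 3.72% for TSA, and 11.3% to 14.1% and 11.5% to 14.3% for E6R. The 3 groups did not overlap, though the intervals of DMSO and E6R did. Without thinning the shares were 23.7% and 20.9%, 17.6% and 9.63%, and 34.1% and 28.3%, so E6R lay above DMSO without thinning and below it at 1000 UMIs per cell. At 500 UMIs the 2 overlapped, at 6.02% and 7.45% for E6R and 7.20% and 7.98% for DMSO.

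B4GALNT1 was seen in 3.54% and 6.06% of thinned DMSO cells, 1.57% and 1.79% of TSA cells, and 3.14% and 4.53% of E6R cells. The TSA intervals, 1.05% to 2.24% and 1.33% to 2.36%, lay below those of the other 4 libraries, the lowest of which began at 2.45%. Unthinned shares were 7.20% and 8.91%, 6.89% and 4.65%, and 11.7% and 13.96%. TSA was the lowest group in both measures.

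GPC2 was seen in 1.26% and 0.297% of thinned DMSO cells, 1.89% and 1.69% of TSA cells, and 0.682% and 0.314% of E6R cells, and in 2.20% and 0.607%, 9.04% and 5.35%, and 3.22% and 2.48% without thinning. The interval of DMSO replicate 1, 0.709% to 2.08%, covered both TSA shares. ST8SIA1 was seen in 0 to 3 thinned cells of a library. In E6R replicate 1 it was 0 of 2199 thinned cells (exact 95% interval up to 0.168%) and 2 of 2891 unthinned cells, so its share could not be ordered between treatments at this depth.

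CD47 had a UMI in 8.59% and 9.33% of thinned DMSO cells, 7.34% and 5.16% of TSA cells, and 14.6% and 8.53% of E6R cells. At this depth E6R replicate 1 stood above DMSO and E6R replicate 2 did not, whereas both E6R libraries did so in the summed levels. Without the 5% of cells with most UMIs both E6R shares did, at 13.3% and 9.41% against 9.05% and 7.87% for DMSO. The interval of DMSO replicate 1 there, 7.42% to 10.9%, covered the 9.41% of E6R replicate 2. Summed levels without those cells overlapped, with E6R replicate 2 at 93.4 CPM and DMSO replicate 1 at 94.4. Unthinned shares were 16.6% and 11.6%, 25.3% and 14.5%, and 35.4% and 22.6%. CD24 ran from 5.56% to 15.2%, L1CAM from 14.7% to 24.8%, UGCG from 2.61% to 4.41% and ST3GAL5 from 0.927% to 2.43% of thinned cells. Unthinned, these were 8.81% to 33.1%, 23.3% to 39.0%, 5.87% to 18.0% and 2.65% to 9.81%.

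**Figure D4:**
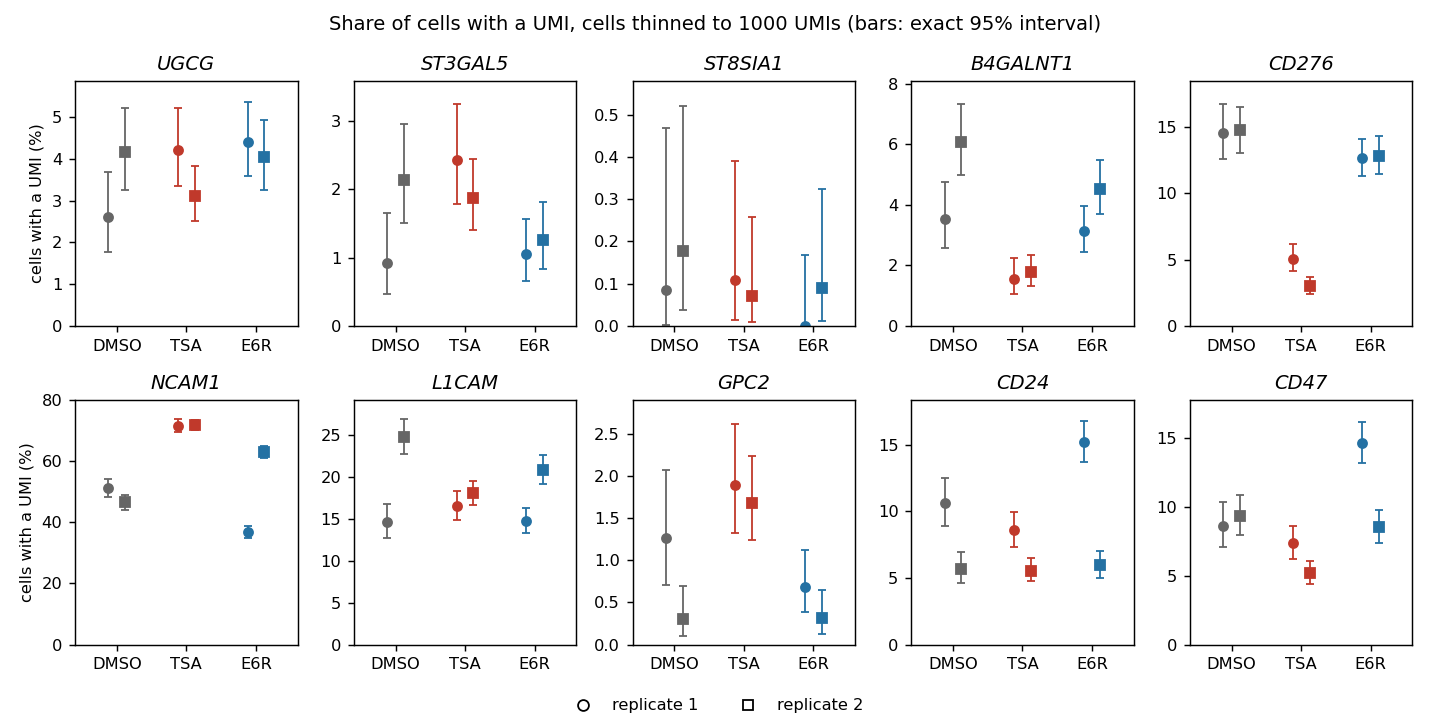
Share of cells with a UMI of each gene in cells thinned to 1000 UMIs, in percent on linear axes from 0; circles are replicate 1, squares replicate 2, and bars the exact 95% interval for counting error. For CD276 the TSA libraries sit at 5.08% and 3.01% and the other 4 between 12.6% and 14.7%, and for NCAM1 the E6R libraries sit apart at 36.7% and 63.1%.

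A thinned cell had a UMI of 1.03 to 1.22 of the 10 genes on average. At least 1 of the 6 surface target genes was seen in 71.0% and 69.7% of DMSO cells, 80.4% and 80.0% of TSA cells, and 65.3% and 76.3% of E6R cells, an order that follows NCAM1, the most widely seen of them. At least 1 of the 4 enzymes was seen in 6.99% and 12.2% of DMSO cells, 7.99% and 6.74% of TSA cells, and 8.55% and 9.43% of E6R cells. DMSO overlapped both other groups here, and both E6R libraries were above both TSA libraries. ST8SIA1 and B4GALNT1 were seen together in 0 cells of 5 libraries and in 1 cell of E6R replicate 2, a count that the depth of 1000 UMIs limits.

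For each member with a mean of at least 20 CPM, the 2 genes with the most similar pattern over the 6 libraries were sought among 7514 others, by the root mean square difference of centred log2 levels. For CD276 these were ZNF37A and FBXO7, at 0.0763 and 0.0967. Those of B4GALNT1, BIN1 and UBE2D4, were less close, at 0.159 and 0.177. UGCG had ETFA and GPAM at 0.0480 each, and CD47 had PSMA2 and DSTN at 0.0549 and 0.0666. L1CAM had THOP1 and SGO1 at 0.0954 and 0.102, and CD24 had ANTXR1 and BAMBI at 0.104 and 0.106. No other member was among the 2 nearest of any of the 7 members at that level. The 6 points share treatments and libraries, so likeness here is a description.

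Around the 4 enzymes, a list of 29 further genes of ganglioside supply, branching and breakdown was followed, and all 29 were tested. Under TSA 3 were called higher and 7 lower (34.5%, against 29.7% of all tested genes), with a median log2 fold change of 0.04 against -0.01 for all genes. The lysosomal sialidase NEU1 rose by 2.67 (SE 0.21, edgeR adjusted p = 5.91e-04), from 47.2 and 54.7 CPM under DMSO to 340.0 and 310.2. PSAP, the precursor of the saposins that present glycolipids to lysosomal enzymes, rose by 1.65 (SE 0.21, edgeR adjusted p = 0.00187), from 654 and 730.4 to 2225 and 2118 CPM. CASD1, which O-acetylates sialic acids, fell by 3.38 (SE 0.38, edgeR adjusted p = 0.00135), from 21.0 and 22.4 to 2.73 and 1.39 CPM. The groups of these 3 genes were far apart, and E6R lay near DMSO in each.

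CERS2, a ceramide synthase, fell by 1.91 under TSA (SE 0.27, edgeR adjusted p = 0.00270), from 57.8 and 87.8 to 16.7 and 22.2 CPM. CMAS, which activates sialic acid for every sialyltransferase, fell by 1.15 (SE 0.21, edgeR adjusted p = 0.00695), from 57.1 and 68.5 to 31.1 and 25.4 CPM. CMAS overlaps ST8SIA1 on the opposite strand, with no shared exon bases. Of the lactosylceramide synthases, B4GALT6 was among those that fell, and B4GALT5 was not called. Of the 5 groups, the branch genes had 1 higher and 3 lower of 7, breakdown 2 higher of 8, ceramide supply 2 lower of 7, and lactosylceramide synthesis 1 lower of 2. Sialic acid donor synthesis had 1 lower of 5.

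Under E6R none of the 29 was called, and 3 had an unadjusted p under 0.05, where 17.4% of tested genes did. B4GALT6 was at 17.4 and 12.6 CPM under DMSO and 36.9 and 23.7 under E6R, a difference of 1.01 (SE 0.32, edgeR adjusted p = 0.217). A4GALT, which makes the globoside branch, had 4 and 6 UMIs under DMSO, 107 and 61 under TSA and 7 and 8 under E6R. Its difference for E6R, -1.44 (edgeR adjusted p = 0.280), rests on those few UMIs and is not a measured drop. Under TSA it rose by 2.73 (SE 0.55, edgeR adjusted p = 0.00939), a size that also rests on few UMIs under DMSO. ST8SIA5, a sialyltransferase of larger gangliosides, had 6 and 8 UMIs under DMSO and 0 and 6 under E6R (edgeR adjusted p = 0.218), too few for a fold change to be given. Between E6R and TSA, 8 of the 29 were higher and 5 lower (44.8%, against 38.2%).

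**Figure D5:**
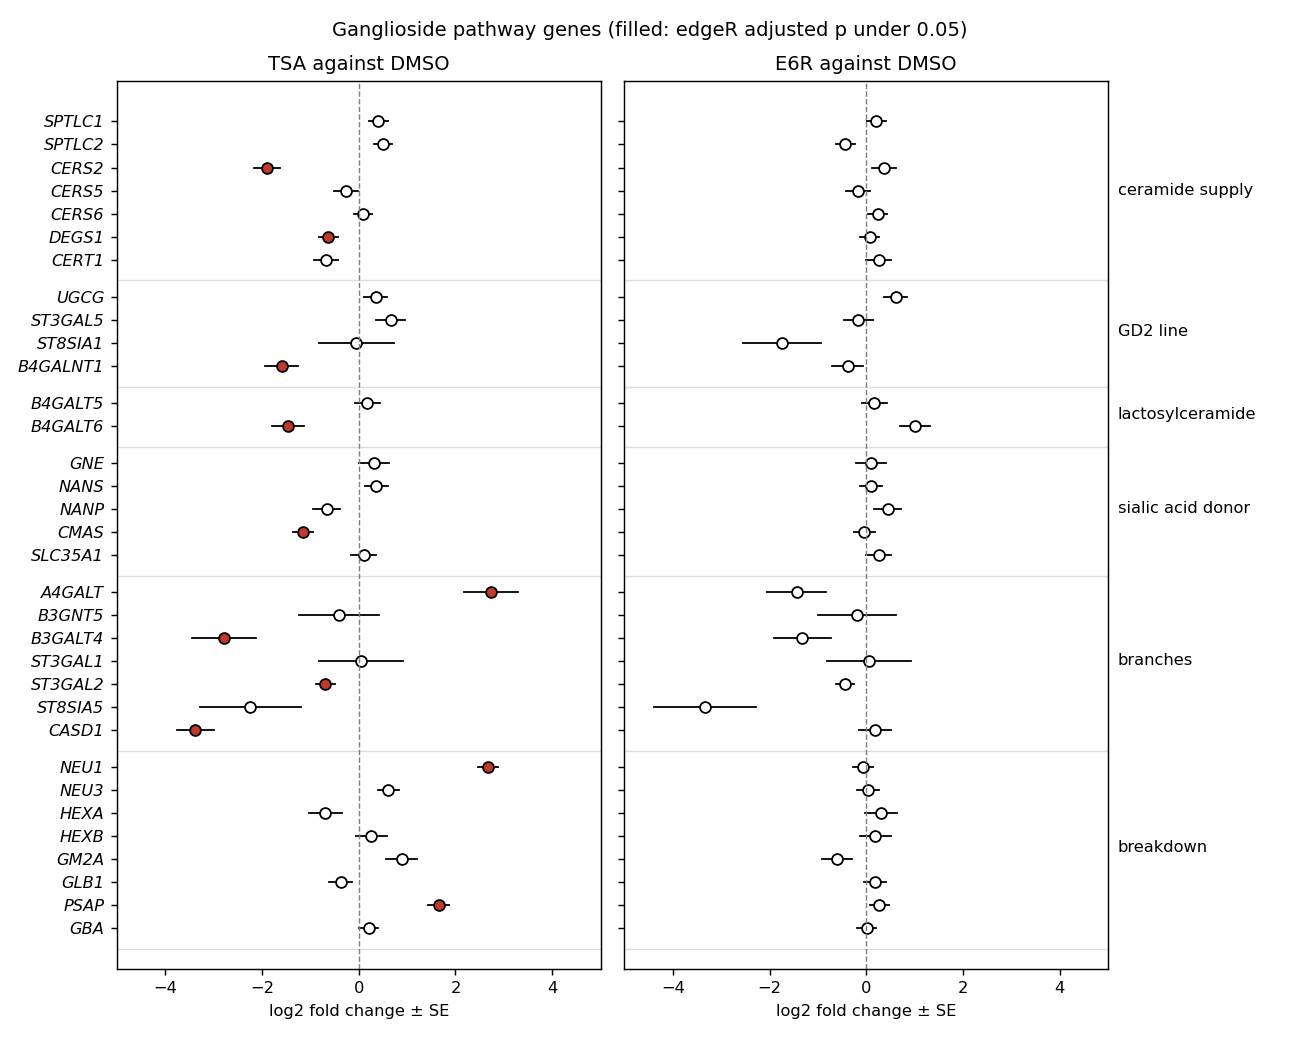
Log2 fold change ± SE of the 4 GD2 line enzymes and 29 other ganglioside genes, in groups by role, for TSA and E6R against DMSO; filled points passed an edgeR adjusted p of 0.05. In the TSA panel 11 points are filled, B4GALNT1 among them, and in the E6R panel 0.

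A list of 32 partners and relatives of the surface targets had 27 genes tested. Under TSA 9 were called higher and 2 lower (40.7%, against 29.7% of all tested genes), with a median of 0.46 against -0.01. CALR, a chaperone that on the cell surface promotes uptake by macrophages and is held in check by CD47, rose by 2.19 (SE 0.25, edgeR adjusted p = 0.00145), from 508 and 608 to 2316 and 2771 CPM. NCAM2, the paralogue of NCAM1, rose by 1.72 (SE 0.23, edgeR adjusted p = 0.00238), from 13.8 and 17.2 to 51.9 and 50.2 CPM. TNFRSF10B, a TRAIL death receptor, rose by 2.74 (SE 0.39, edgeR adjusted p = 0.00280), from 3.19 and 3.82 to 17.6 and 29.3 CPM.

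MCAM, an adhesion molecule, rose by 2.74 under TSA (SE 0.43, edgeR adjusted p = 0.00399), from 25.5 and 18.4 to 144 and 149 CPM. NRCAM, a relative of L1CAM, fell by 1.82 (SE 0.30, edgeR adjusted p = 0.00492), from 327 and 511 to 120.0 and 117 CPM. Neither polysialyltransferase, ST8SIA2 or ST8SIA4, which put polysialic acid on NCAM1, was called under TSA. ST8SIA2 varied between replicates, at 17.8 and 3.82 CPM under DMSO, 1.67 and 1.13 under TSA, and 19.8 and 2.71 under E6R.

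Under E6R none of the 27 was called, and 5 had an unadjusted p under 0.05, where 17.4% of all tested genes did. NRCAM was at 696 and 1107 CPM, a difference from DMSO of 1.11 (SE 0.30, edgeR adjusted p = 0.205). THY1, a neuronal surface glycoprotein, was at 436 and 456 CPM under DMSO and 648 and 726 under E6R, a difference of 0.62 (SE 0.19, edgeR adjusted p = 0.214). CALR was at 784 and 1084 CPM, a difference of 0.74 (SE 0.24, edgeR adjusted p = 0.218). For these 3 genes both E6R libraries were above both DMSO libraries. Between E6R and TSA, 5 of the 27 were higher and 9 lower (51.9%, against 38.2%).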

How the data were processed

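UMIs were measured in 6 Seq-Well S3 libraries, 2 each of DMSO, TSA and E6R cells. The deposited matrices hold whole-number UMI counts per gene and barcode, not normalized, from checks of their values. The submitters' processing notes name STARsolo 2.7.9a and GRCh38, with no role given, and no strand setting. Coordinates are from GENCODE 29 on GRCh38 and sequences from RefSeq (GRCh38.p14).

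Cells were barcodes with at least 500 genes and at most 20% of UMIs from MT- genes. No doublet caller was run; removing the 5% of cells with most UMIs was tried instead. Counts were summed per library and tested with edgeR 4.0.16 (R 4.3.3; TMM, filterByExpr, group as the only term, all 6 libraries, Benjamini-Hochberg over 16763 genes); DESeq2 1.42.0 was an alternative. The common biological coefficient of variation was 0.288, and the 2 replicates of each group differed by more than counting noise (chi-square per degree of freedom 17.1, 36.6 and 70.0) and were counted separately. Levels in small barcodes (under 300 genes), in groups of cells by UMIs and of marker lists use plain library totals. Standard errors come from the F statistic.

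All 10 members are given whatever their result. From each list, the 5 genes with the smallest p in TSA and the 3 in E6R against DMSO are named; B4GALT5, B4GALT6 under TSA, A4GALT under TSA, ST8SIA2 and ST8SIA4 were named for their role after their values were seen. The members and lists were chosen with earlier results of these data known. Groups come from the sample titles. No label gives a batch. The genes nearest in pattern to NCAM1 are not reported here.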

Additional observations from a re-analysis of the deposited data

How the results depend on the processing

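CD276 was called in TSA against DMSO and in E6R against TSA under all 18 alternatives. B4GALNT1 was called under 15 and 14 of them, NCAM1 under 15 and 17, and GPC2 under 13 and 16, in each case with the direction kept under all 18. In TSA against DMSO, 4 members were called, and fits without 1 library gave 1 to 4; in E6R against TSA, 5 were called, such fits gave 1 to 7, and thinned cells gave 3. A group left with 1 library is assumed there to vary like the others. In E6R against DMSO, 0 were called, and 1, CD47, with no low-count filter. DESeq2 called 4, 0 and 5 members. Over all genes it called 2864 higher and 2414 lower in TSA against DMSO, and 3490 and 2954 in E6R against TSA. In the main fit these were 2720 and 2255, and 3141 and 3267. Thinned cells gave 2087 higher and 2056 lower over all genes in E6R against TSA. Over all genes tested, E6R against DMSO had 0 calls, 1095 with no low-count filter, 415 with DESeq2 and 19 with the replicate block; the cause was not tested.

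The replicate block kept 4 and 0 members and gave 6 in E6R against TSA, with ST3GAL5 added (-0.85, edgeR adjusted p = 0.0281). Over all genes the block gave 3323 higher and 2724 lower in TSA against DMSO, and 3643 and 3924 in E6R against TSA. The labels share only replicate numbers, and deviations of same-numbered libraries correlated at 0.242, 0.564 and 0.166 over 7515 genes. With the replicate block L1CAM in TSA against DMSO was 0.029.

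All changes of sign were in differences that were not called. Fits without 1 library gave, in TSA against DMSO, -0.29 to 0.17 for ST8SIA1, -0.74 to 0.46 for CD24, -0.36 to 0.40 for L1CAM and -0.48 to 0.14 for CD47. In E6R against DMSO they gave -0.47 to 0.47 for NCAM1, -0.58 to 0.81 for GPC2, -0.38 to 0.16 for ST3GAL5, -0.64 to 0.17 for B4GALNT1, -0.43 to 0.35 for L1CAM and -0.36 to 1.25 for CD24. In E6R against TSA they gave -0.37 to 0.10 for L1CAM and -0.17 to 1.27 for CD24. With cells thinned to 1000 UMIs, L1CAM in TSA against DMSO was 0.0155, NCAM1 in E6R against DMSO 0.12 and UGCG in E6R against TSA -0.0066. Without the 5% of cells with most UMIs, ST8SIA1 and L1CAM in TSA against DMSO were 0.11 and 0.0209, and NCAM1 in E6R against DMSO 0.14. With cells of at least 300 genes, L1CAM in TSA against DMSO was 0.0040 and NCAM1 in E6R against DMSO 0.058; with at least 1000 genes, ST8SIA1 in TSA against DMSO was 0.0197. Without barcodes found in another library, an alternative chosen after seeing the data, ST8SIA1 in TSA against DMSO was 0.10 and NCAM1 in E6R against DMSO 0.0157. With no low-count filter, ST3GAL5, NCAM1 and GPC2 in E6R against DMSO were 0.0034, 0.15 and 0.0567, and L1CAM in E6R against TSA 0.0806. With library totals alone, L1CAM in E6R against TSA was 0.0125, and with DESeq2 NCAM1 in E6R against DMSO was 0.056.

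Members whose shares did not overlap numbered 5 in TSA against DMSO at 1000 UMIs, 8 with no thinning and 3 at 500 UMIs. In E6R against DMSO they numbered 1, and 7 with no thinning, 3 at 2000 UMIs and 2 without the 5% of cells with most UMIs. At 1000 UMIs the shares of 62.3% of all tested genes did not overlap in TSA against DMSO, and of 35.7% in E6R against DMSO. For the other settings the share over all genes was not taken, so those counts have no background beside them. Depth limits ST8SIA1, with 2 to 19 UMIs per library, and GPC2 under DMSO, with 42 and 19.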
